A study of Mus musculus with 6 samples.

Results

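The cytosolic ribosomal protein genes were examined in 6 libraries of mouse brain RNA, 3 from C57BL/6 mice injected intraperitoneally with 4-aminopyridine (4-AP) and 3 from untreated C57BL/6 mice. 4-AP blocks voltage-gated potassium channels, and the series uses it to induce status epilepticus. RNA of all 6 samples was digested with RNase R, which removes linear RNA and spares circles. The labels give no dose, age, sex, brain region or time of sampling, describe no vehicle injection in the controls, and do not say whether each sample is a separate animal, so p-values measure only the spread between these samples. The members are protein-coding genes of GENCODE M21 whose symbol is Rpl or Rps followed by a subunit number, with an optional letter or digit, or by p0, p1 or p2. This rule found 82 of the 55604 genes in the count tables, 51 for the large and 31 for the small subunit.

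Cytosolic ribosomes translate nuclear-encoded mRNAs. A small subunit reads the codons and a large subunit joins the amino acids, each built of ribosomal RNA and a fixed set of proteins. The mRNAs of these proteins are short and abundant, and their translation is controlled together by the TOR kinase through a tract of pyrimidines at the start of the mRNA, the terminal oligopyrimidine (TOP) motif. In neurons ribosomes are also found in dendrites and axons.

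The total count per library ran from 1507882 to 2721287 in 4-AP and from 2355610 to 3409055 in control brain. Ribosomal protein genes received 38388 counts in all, between 0.234% and 0.287% of a library. A gene-level count does not separate linear from circular RNA, so no value given here is that of a circular RNA. Values are given as CPM, counts per 1e+06 counts of the scaled library size, where 3 counts correspond to between 0.778 and 2.19 CPM. These floors cover counting error only. Of the 82 genes, 76 passed the filter on low counts, and 81 had at least 1 count.

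Ribosomal protein genes lay mostly higher in 4-AP brain, by a small amount, and 1 of them, Rpl41, passed the test. The median log2 fold change of the 76 tested members was 0.29, against -0.008 for all 11388 tested genes. Of the members, 62 lay above 0 and 14 below, whereas 49.0% of all tested genes lay above 0. Rpl41 was the 1 member called, meaning an adjusted p under 0.05 from edgeR over all genes, which is 1.32% of the tested members beside 0.843% of all tested genes (0.334% called higher). No member was called lower, beside 0.509% of all tested genes. At an unadjusted p under 0.05, 15 members were higher and 0 lower, where 6.29% of all genes were higher and 7.57% lower. In 15 members, 19.7% of those tested, all 3 4-AP libraries lay above all 3 controls, as in 8.36% of all tested genes. No tested member had all 4-AP libraries below all controls, as 10.4% of all genes had. The direction of this gene family was known from earlier results of these data and is given as a description. In bulk tissue, a change in the number of cells of a type and a change in RNA per cell cannot be told apart here. The RNA had been digested with RNase R, so a count also depends on how much linear RNA escaped digestion in that library. The part of this in the difference was not tested.

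**Figure D1:**
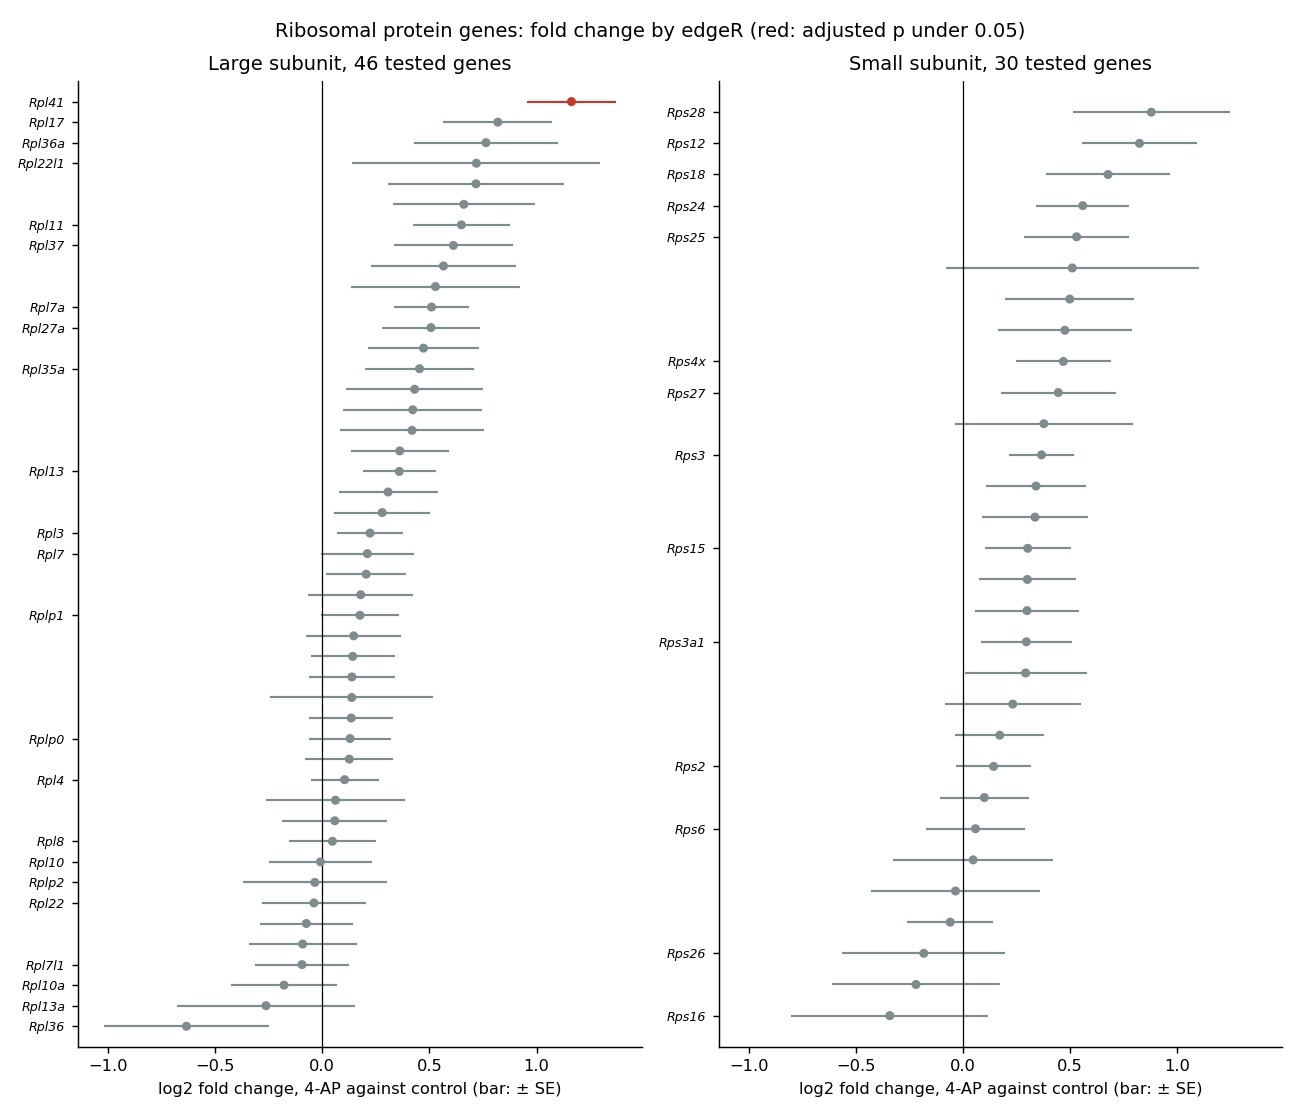
Log2 fold change of each tested ribosomal protein gene, 4-AP against control, with its standard error as a bar; large subunit genes on the left, small subunit genes on the right, with names for the genes described in the text. Rpl41, at 1.16, is the 1 gene in red (adjusted p under 0.05), and Rpl36, at -0.63, is the lowest.

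Rpl41 encodes the smallest protein of the ribosome, a very basic peptide of the large subunit. The gene lies on chromosome 10 (128548114 to 128549305, minus strand, mm10) and shares no exonic base with another gene. Its coding sequence, shown whole because it is the shortest of all members and belongs to the 1 called gene, has 78 bases with the stop codon; start and stop codons are in capitals (transcript Rpl41-201 of GENCODE M21, 5′ to 3′):
Rpl41: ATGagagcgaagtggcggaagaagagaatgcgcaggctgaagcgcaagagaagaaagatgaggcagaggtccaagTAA
Of its 25 amino acid codons, 17 are for lysine or arginine. The next shortest coding length among the members, without the stop codon, was 153 bases, the median 454.5 and the longest 1257.

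Rpl41 was at 121, 69.7 and 102 CPM in 4-AP replicates 1, 2 and 3. In control replicates 1, 2 and 3 it was at 38.0, 41.2 and 50.4 CPM. Every 4-AP library was above every control, and 4-AP replicate 2 was the closest to them. The means were 97.3 ± 25.7 and 43.2 ± 6.44 CPM (SD, n = 3 each), a difference of 1.16 on the log2 scale with an SE of 0.21 (edgeR, adjusted p = 0.00739). These values came from 185, 195 and 139 reads of 4-AP brain and 121, 159 and 113 of control brain. Without 4-AP replicate 1 Rpl41 was at 0.97 and no longer passed (edgeR, adjusted p = 0.0597). In the other 5 fits that left out 1 library it passed, with log2 fold changes from 1.09 to 1.40. Without replicate 1 of both groups, a setting chosen after seeing the data, it was at 0.89 (edgeR, adjusted p = 0.106).

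After Rpl41, the large subunit members with the smallest p above 0 were Rpl17 and Rpl7a, and neither passed. Rpl17 (chromosome 18, 74998558 to 75003381), a protein at the exit of the peptide tunnel, was at 36.5, 30.4 and 57.8 CPM in 4-AP brain against 17.9, 27.8 and 23.2 in control brain. The groups were separate, by a small margin between 4-AP replicate 2 and control replicate 2. Its log2 fold change was 0.82 (SE 0.25, edgeR adjusted p = 0.122). Rpl7a (chromosome 2, 26910764 to 26913318) was the most even of these genes, at 80.8, 85.4 and 85.5 CPM in 4-AP brain against 51.2, 61.2 and 64.7 in control brain. Its log2 fold change was 0.51 (SE 0.17, edgeR adjusted p = 0.162). Rpl17 has 11 and Rpl7a 13 annotated pseudogenes under its own name, so reads may be split or lost between copies and both values are uncertain.

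In the small subunit, no member passed, and Rps12, Rps24 and Rps3 had the smallest p above 0. Rps12 (chromosome 10, 23785183 to 23787275) was at 20.2, 22.9 and 29.2 CPM in 4-AP brain against 10.4, 15.8 and 14.3 in control brain. It had a log2 fold change of 0.82 (SE 0.27, edgeR adjusted p = 0.147), with groups that did not overlap. With Rpl31 it had the most named pseudogenes of any member, 24. Rps24 (chromosome 14, 24487125 to 24496959), whose human gene is mutated in some patients with Diamond-Blackfan anaemia, was at 54.1, 35.0 and 44.6 CPM against 28.3, 33.7 and 27.2. Here 4-AP replicate 2 was barely above control replicate 2, and the log2 fold change was 0.56 (SE 0.22, edgeR adjusted p = 0.232). Rps3 (chromosome 7, 99477896 to 99483738), a protein at the mRNA entry channel that also has a role in DNA repair, was at 145, 130 and 154 CPM against 106, 116 and 109. All 4-AP libraries were above all controls at a log2 fold change of 0.37 (SE 0.15, edgeR adjusted p = 0.273).

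**Figure D2:**
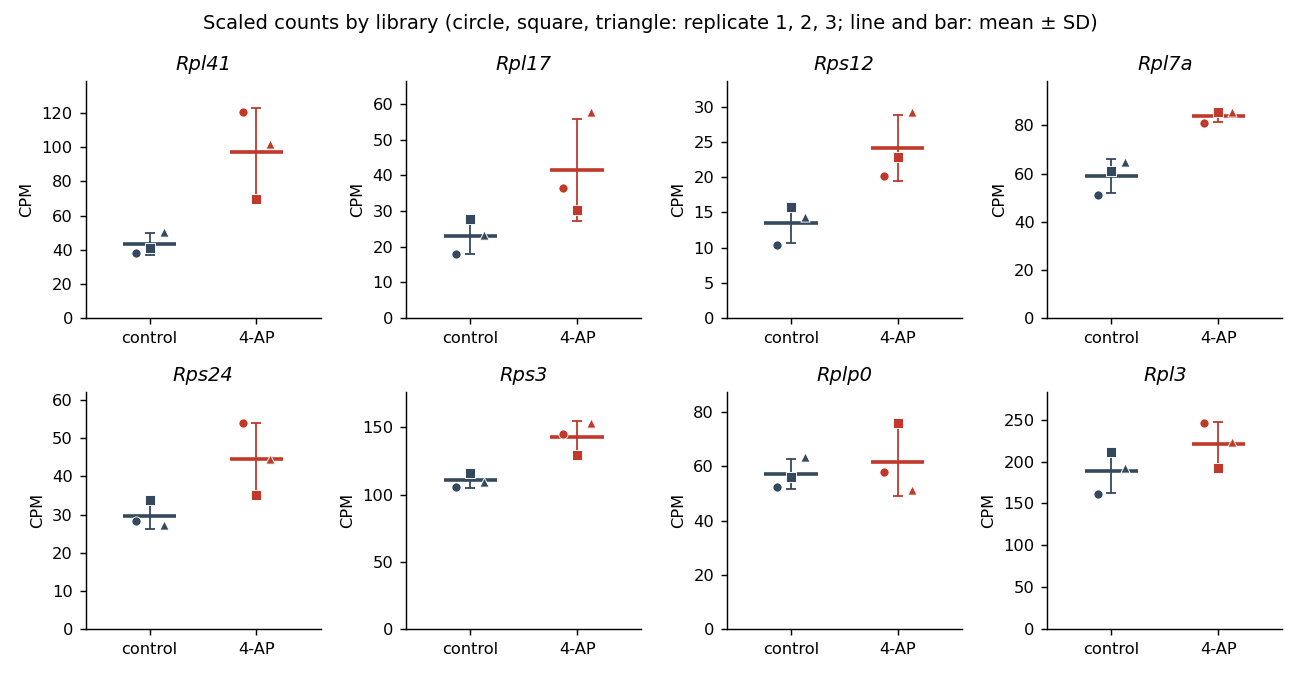
CPM of 8 ribosomal protein genes in each library, controls in dark blue and 4-AP in red; circle, square and triangle mark replicates 1, 2 and 3, and the line and bar the mean ± SD. In Rpl41 all 4-AP points, from 69.7 upwards, lie above the controls, which reach 50.4; in Rplp0 and Rpl3 the groups overlap.

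A further 8 members, picked out after their values were seen, had separate groups without passing the test. They were Rpl11, Rpl13, Rpl27a, Rpl35a, Rpl36a, Rpl37, Rps18 and Rps25. Rpl11, which binds Mdm2 when ribosome assembly is disturbed, was at 0.65 on the log2 scale, from 21.6 ± 2.53 to 33.7 ± 5.79 CPM (SD, n = 3 each). The other 7 ranged from 0.36 in Rpl13 to 0.76 in Rpl36a. Rps28 had a higher log2 fold change, 0.88 (SE 0.37), but its groups overlapped.

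None of the 14 members below 0 passed. In the large subunit Rpl36, Rpl10a and Rpl13a had the smallest p. Rpl36 was at 7.82, 8.22 and 8.77 CPM in 4-AP brain and at 12.6, 7.003 and 20.1 in control brain. The controls spread on both sides of the 4-AP values, and the log2 fold change was -0.63 (SE 0.39). Rpl10a was at -0.18 (SE 0.25) and Rpl13a at -0.26 (SE 0.42). In the small subunit Rps16 was at -0.34 (SE 0.46) and Rps26 at -0.18 (SE 0.38). Rps16 was at 7.82, 3.22 and 6.58 CPM against 9.43, 6.23 and 5.36, with overlapping groups.

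Among the most abundant members per length, the levels of 4-AP and control brain overlapped except in Rpl41 and Rps3. Levels between genes are compared as mean CPM per kb of annotated exon, which counts every annotated transcript and so understates genes with retained-intron models. In the large subunit the highest were Rplp1 (155 CPM per kb), Rpl3 (64.4), Rpl4 (60.7), Rpl41 (60.2) and Rpl8 (51.4). In the small subunit they were Rps15 (80.6), Rps2 (49.97), Rps3a1 (35.9), Rps6 (29.1) and Rps3 (28.3). Rpl3, which lies near the peptidyl transferase centre, was at 246, 192 and 223 CPM in 4-AP brain and at 161, 212 and 192 in control brain, a log2 fold change of 0.22 (SE 0.15). Rps6, the substrate of the S6 kinases downstream of TOR, was at 52.8, 33.2 and 56.3 CPM against 33.6, 49.5 and 51.3, with a log2 fold change of 0.06 (SE 0.23). Rpl4 (0.10), Rpl8 (0.05), Rps15 (0.30), Rps2 (0.14) and Rps3a1 (0.30) also lay above 0 without passing. With scaling by total counts alone, Rpl4, Rpl8, Rps2 and Rps6 lay below 0.

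The stalk of the large subunit, which recruits translation factors, is made of Rplp0, Rplp1 and Rplp2, and none of the 3 differed beyond its error. Rplp0 was at 58.0, 76.1 and 51.2 CPM in 4-AP brain against 52.5, 56.0 and 63.4 in control brain, a log2 fold change of 0.13 (SE 0.19). Rplp1 was at 0.18 (SE 0.18) and Rplp2 at -0.03 (SE 0.34). With scaling by total counts alone, Rplp0 and Rplp1 lay below 0. Per kb, Rplp1 (155 CPM) was well above Rplp0 (35.9) and Rplp2 (7.59).

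Several members have a paralogue that the rule also matched, some of them known for restricted tissues. Rpl3l, the form of Rpl3 in heart and skeletal muscle, had 0 counts in every library, below a floor of 3 counts per library. Rpl10l and Rpl39l, known from testis, had 3 counts each over all 6 libraries, and Rps27l had 13, so none could be tested. Their partners Rpl10 (log2 -0.008, SE 0.24), and Rps27 (0.44, SE 0.27) were measured without passing, and Rpl39 had only 51 counts. Rpl22l1, which can replace Rpl22, was at 8.48, 2.86 and 6.58 CPM in 4-AP brain and 2.51, 2.08 and 6.25 in control brain. The groups overlapped, with a log2 fold change of 0.72 (SE 0.58), and Rpl22 itself was at -0.04 (SE 0.24). Rpl7 was at 0.21 (SE 0.22) and Rpl7l1, a ribosome biogenesis factor, at -0.09 (SE 0.22). The X-linked Rps4x, whose paralogue Rps4l was not among the matched genes, was at 43.0, 36.1 and 28.5 CPM against 23.3, 26.5 and 28.6. The lowest 4-AP library was just below the highest control, and the log2 fold change was 0.47 (SE 0.22, edgeR adjusted p = 0.350). The sixth untested member was Rpl24, with 16 counts, which shares 47.0% of its exonic bases with other genes.

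The large and the small subunit had similar fold changes, and their ratio did not separate the groups. The median log2 fold change was 0.21 over 46 tested large subunit genes and 0.30 over 30 small subunit genes. Of the large subunit genes 37 lay above 0, and of the small subunit genes 25. The summed large subunit counts were 2.06, 2.21 and 1.98 times the small subunit counts in 4-AP replicates 1 to 3. In control replicates 1 to 3 the ratio was 2.11, 2.08 and 2.21. The groups overlapped, and the mean ratio was 2.08 ± 0.118 in 4-AP and 2.13 ± 0.0665 in control brain (SD, n = 3 each). Both subunits had the lowest median deviation from each gene's mean in control replicate 1, at -0.325 and -0.37 on the log2 scale for the large and small subunit. Both had the highest in 4-AP replicate 1, at 0.23 and 0.27. Per length, the median tested member was at 14.3 CPM per kb in the large and at 10.95 in the small subunit, against 5.24 for all tested genes.

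Single libraries set much of the members' pattern. Control replicate 1 was the lowest of the 6 libraries for 39 of the 76 tested members and the highest for 1. 4-AP replicate 1 was the highest for 31 and 4-AP replicate 3 for 20. The sum of all 82 members was 3082, 2631 and 2977 CPM in 4-AP replicates 1 to 3 and 2083, 2538 and 2594 CPM in control replicates 1 to 3. The groups were thus separate, but 4-AP replicate 2 was close to control replicates 2 and 3. Group means were 2897 ± 236 and 2405 ± 280.3 CPM (SD, n = 3 each), a ratio of 1.204, and without Rpl41 the ratio was 1.185. Without control replicate 1 the members' median log2 fold change was 0.19, and without replicate 1 of both groups it was 0.11, with 51 of 77 tested members above 0. As a plain share of all counts the members did not separate, at 0.257%, 0.271% and 0.2701% in 4-AP brain and 0.234%, 0.287% and 0.247% in control brain. The 95% Wilson interval of the lowest share ran from 0.229% to 0.240% and that of the highest from 0.281% to 0.293%, and these intervals cover counting error only. Scaling by total counts alone put 43 members above 0 and 33 below, with a median of 0.08, while the median over all tested genes became -0.22. The distance between both medians was 0.29 with that scaling and 0.30 in the scaled counts.

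The ribosomal RNA left in the libraries was compared with the ribosomal protein sum. Ribosomal RNA was counted on genes annotated as ribosomal RNA and on Gm26917. Nearly all of it lay on 2 neighbouring loci of chromosome 17 that take reads of the ribosomal RNA precursor. The loci are CT010467.1 (39846353 to 39848827, annotated as ribosomal RNA) and Gm26917 (39843013 to 39846341, annotated as a long intergenic RNA). It made up 12.4%, 5.88% and 9.025% of counts in 4-AP replicates 1 to 3 and 3.403%, 3.02% and 7.52% in control replicates 1 to 3. The groups overlapped, since control replicate 3 was above 4-AP replicate 2. The means were 9.10% ± 3.26 and 4.65% ± 2.49 (SD, n = 3 each; two-sided exact permutation p = 0.2, where 3 against 3 libraries cannot go below 0.1). The 2 parts of this share differed. Genes annotated as ribosomal RNA took 5.856% ± 2.745 in 4-AP and 1.776% ± 1.736 in control brain (exact permutation p = 0.2). Gm26917 took 3.24% ± 0.553 in 4-AP and 2.87% ± 0.822 in control brain (exact permutation p = 0.5). Mitochondrial ribosomal RNA took 1.93%, 0.726% and 1.32% in 4-AP brain and 0.143%, 0.263% and 0.737% in control brain, with p = 0.2 by the same exact permutation test.

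Set beside these shares, the ribosomal protein sum had a similar order of libraries. 4-AP replicates 1 and 3, in that order, were the highest in both the ribosomal protein sum and the ribosomal RNA share. 4-AP replicate 2 and control replicate 3 followed in both, in opposite order, and control replicates 1 and 2 were the lowest in both. On Gm26917 alone the order was less alike, with control replicate 3, at 3.74%, next after 4-AP replicate 1, at 3.87%. Rpl41 had the same order of libraries as the ribosomal protein sum. Within the 4-AP group, the library with the least ribosomal RNA, replicate 2, was also the lowest in Rpl41. The part of ribosomal RNA carry-over in the higher ribosomal protein values was not tested. When the ribosomal RNA genes, mitochondrial ones included, were left out before scaling, Rpl41 stayed at 1.16 on the log2 scale. The members' median stayed at 0.29. Leaving these genes out does not change the members' own counts, so it is no test of carry-over.

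**Figure D3:**
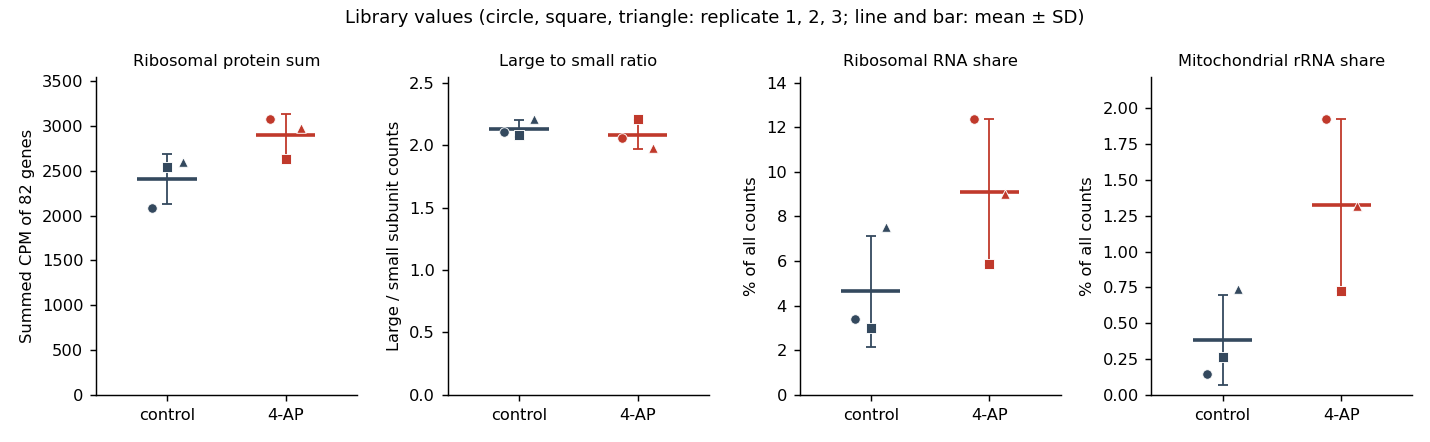
Library values of, from left to right, the summed CPM of all 82 ribosomal protein genes, the ratio of large to small subunit counts, the ribosomal RNA share and the mitochondrial ribosomal RNA share of all counts; points are replicates 1 (circle), 2 (square) and 3 (triangle), and lines and bars the mean ± SD. 4-AP replicate 1 is the highest in the first and in both RNA share plots, and the large to small ratio stays between 1.98 and 2.21.

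Features that the symbol rule did not use were read from the annotation. Fold changes were weakly related to length. Spearman's rho across the 76 tested members was -0.29 between coding length and log2 fold change, and -0.26 without Rpl41. For exonic length, which the offset in the fit uses, it was -0.12. The genes share their libraries and are not independent replicates, so this is a description only. With an offset for exonic length in the fit, Rpl41 was at 1.03 and still passed (edgeR, adjusted p = 0.0147), and the members' median was 0.21. Small nucleolar RNA (snoRNA) genes lay inside 29 members, 55 genes in all, on the same strand. These snoRNAs had 185 counts over all libraries and none reached the count needed for a test. The 28 tested host members had a median log2 fold change of 0.23 and the 48 others 0.30. Under the members' own names 289 pseudogenes were annotated, belonging to 59 members, and they held 627 counts or 1.63% of the members' counts. Adding them to their members left the log2 ratio of the sums at 0.27. Pseudogenes under other names were not counted, and how the authors' counting treated reads with several matches is not given in the sources used here, so single values of this family carry that uncertainty. In 11 members over 20% of the exonic bases are shared with other genes, among them Rpl13a.

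**Figure D4:**
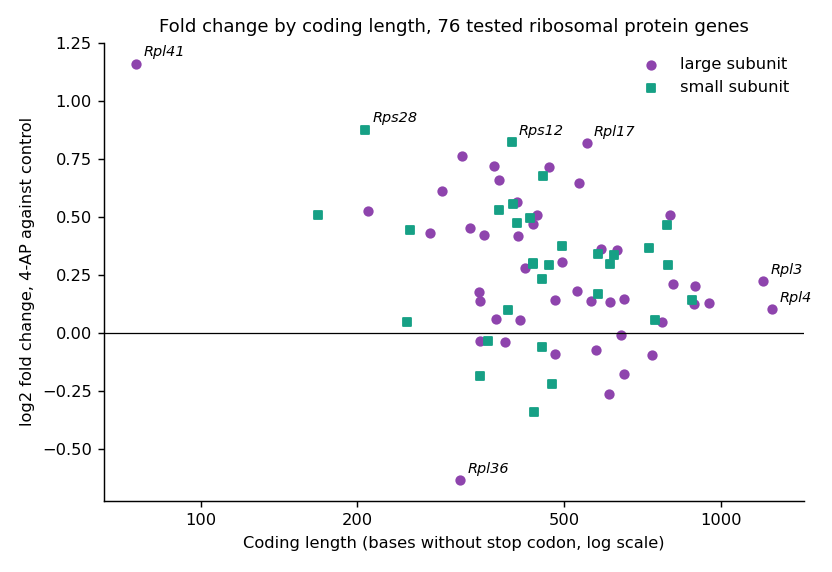
Log2 fold change of each tested ribosomal protein gene (vertical axis) against its coding length in bases on a log scale (horizontal axis); circles are large and squares small subunit genes. Rpl41 stands alone at 75 bases without its stop codon and at 1.16, and the longest, Rpl4, is at 0.10.

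The region around the transcription start was read from RefSeq (GRCm38.p6), which held 62 of the 82 members. A start base C followed by 4 or more pyrimidines, the TOP form at the exact annotated start, was present in 13 of these 62 members. It was present in 3.01% of all 27025 genes of the table. This form depends on the annotated base and misses a run that begins a few bases away, such as that of Rps12 below. Its share is therefore not that of members with a TOP motif. A run of 5 pyrimidines within 15 bases of the start was present in 74.2% of members and 51.5% of all genes. The letters CCGGAAG, on either strand, a core bound by ETS family factors, were found in 40.3% of members and 9.93% of all genes over the 300 bases around the start. The letters AAGATGGC, found in sites of the factor YY1, were in 9.68% and 3.19%. Among the 13 members of the table with all 4-AP libraries above all controls, the TOP form at the start was in 2 and CCGGAAG in 6. The windows below run from 15 bases before the start to 15 from it on. They belong to members described above, some above and some below 0, and are shown because the TOP motif is defined at the start; runs of at least 5 pyrimidines are in capitals.
Rpl41, chr10:128549154-128549183, minus strand: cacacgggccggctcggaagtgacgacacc
Rps12, chr10:23787195-23787224, minus strand: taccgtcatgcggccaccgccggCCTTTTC
Rps24, chr14:24490663-24490692, plus strand: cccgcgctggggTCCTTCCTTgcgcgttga
Rpl7a, chr2:26910792-26910821, plus strand: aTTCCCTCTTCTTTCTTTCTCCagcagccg
Rps3, chr7:99483695-99483724, minus strand: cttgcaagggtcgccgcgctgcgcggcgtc
Rps26, chr10:128626492-128626521, minus strand: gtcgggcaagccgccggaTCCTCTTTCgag
Rpl13a, chr7:45128731-45128760, minus strand: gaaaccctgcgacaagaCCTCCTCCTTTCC
Rps16, chr7:28350674-28350703, plus strand: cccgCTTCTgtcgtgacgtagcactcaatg
Pyrimidine runs occur in windows of genes above 0 (Rps12, Rps24 and Rpl7a) and below 0 (Rps26, Rpl13a and Rps16), and Rpl41 and Rps3 have none. In every window shown, with or without a run, the RefSeq start lies inside the gene as annotated in GENCODE M21. In Rpl41 it is at 128549168 against 128549305, and in Rps26, which has a run, at 128626506 against 128626747. In Rps24 and Rpl7a the run spans the annotated start. Rps24 has a second annotated start, and its window there holds no run. Over the 13 separated members of the table, 76.9% had a run, against the 74.2% of all members.

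Other genes of the ribosome and of translation were described through 7 lists. Of 5 ribosomal proteins outside the symbol rule, 3 were tested and all lay above 0 without passing: Fau at 0.46 (SE 0.235), Rpsa at 0.26 (SE 0.17) and Rack1 at 0.165 (SE 0.21). Of 60 tested mitochondrial ribosomal protein genes, 0 passed and 35 lay above 0, with a median of 0.11. Mrps2 had the smallest p, at 13.7, 12.9 and 15.4 CPM against 6.60, 3.89 and 3.57 (log2 1.54, SE 0.38, edgeR adjusted p = 0.0548). Of 60 translation factor genes, 0 passed and 25 lay above 0 (median -0.05). Eif4ebp2, a repressor of cap-dependent translation and a TOR target, was at 16.3, 12.9 and 21.2 CPM against 30.2, 32.9 and 33.0. Its groups were apart at a log2 fold change of -0.97 (SE 0.245, edgeR adjusted p = 0.0593). Of the other TOP mRNAs 17 were tested, with 0 passing and a median of 0.05. Their summed level did separate the groups, at 2728 to 2961 CPM in 4-AP and 2560 to 2638 CPM in control brain. The sum has no test. Most of it came from Eef1a1 and Eef2, and Eef2 overlapped between the groups (log2 0.06, SE 0.14). The separation of the sum rests on Eef1a1 and is not a trait of the whole list. Eef1a1, the elongation factor that brings tRNAs to the ribosome, was at 1049, 982 and 1008 CPM against 721, 899 and 886 (log2 0.28, SE 0.14). Eef1b2 was at -0.69 (SE 0.28). The 15 tested TOR pathway genes and TOP regulators (median -0.09) and the 48 ribosome biogenesis genes (median -0.03) had no member that passed, and neither did the 5 tested non-coding snoRNA hosts (median 0.36). The sum over all snoRNA hosts of the list was also separate, at 395 to 417 CPM in 4-AP and 341 to 380 CPM in control brain. Most of it came from 1 gene that did not pass, Snhg14. This gene was at 331.8, 356.3 and 334.8 CPM against 328.5, 285.3 and 315.1 (log2 0.14, SE 0.135). The sums of the other 5 lists overlapped between the groups. Among the genes of these lists, Rps6kb1 was at 0.25, Tsc2 at -0.32, Riok2 at 0.65, Utp18 at -0.77, Snhg12 at 0.78 and Snhg17 at -1.002.

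The libraries also differed in cell type markers, whose part in the ribosomal protein values was not tested. All 6 neuronal markers, among them Snap25 and Syt1, were detected. Their summed level was 1433 to 1756 CPM in 4-AP and 1896 to 2108 CPM in control brain, with 0 of 6 called. The 6 glutamatergic neuron markers summed to 1254 to 1838 CPM in 4-AP and 2328 to 2415 CPM in control brain, and 3 of them fell (Slc17a7, Nrgn and Neurod2). The 6 hypothalamic hormone genes summed to 39.3 to 59.9 CPM against 0.893 to 16.3, and 3 of the 4 tested rose (Oxt, Avp and Trh). The other tested gene, Pomc, lay below 0 without passing (log2 -0.603, SE 1.144). Most of the highest control sum came from Pomc, at 14.46 CPM in control replicate 1. Microglia markers summed to 437 to 515 CPM against 332 to 404 CPM, with 0 of 5 called. Most of that sum came from Cx3cr1 (log2 0.57, SE 0.14). Of the other microglia markers, Ctss (1.07) and P2ry12 (1.47) lay above 0 and C1qa (-0.33) and Csf1r (-0.02) below. Choroid plexus markers summed to between 14.99 and 78.25 CPM against 3.37 to 12.05 CPM, with 0 of the 2 tested called. Most of the highest sum came from Ttr in 4-AP replicate 2, at 55.03 CPM, where 4-AP replicates 1 and 3 had 5.215 and 7.31. Astrocyte markers summed to 2007 to 2339 CPM against 2645 to 2780 CPM. Of these 5 genes Slc1a2 fell, and the other 4 lay above 0 without passing. Oligodendrocyte, endothelial and blood markers overlapped between the groups. No marker of these lists had 0 counts in every library.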

How the data were processed

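For each of the 6 samples the authors deposited a gene table of raw read counts. The tools named are STAR 2.5.3a (alignment) and featureCounts, with the build mm10, per the submitters' processing notes. Not given in the sources used here are the annotation release, the strand setting and how reads with several matches were handled. Identifiers were matched without version to GENCODE M21 (54809 of 55604; the 795 others held 0.007% of counts). After filterByExpr (at least 10 counts, total at least 15) and TMM scaling, groups were compared in edgeR 4.0.16 under R 4.3.3 (robust quasi-likelihood fit, group as the only term) with Benjamini-Hochberg adjustment over all 11388 genes and a threshold of 0.05. Standard errors are the fold change divided by the root of its F statistic. Sums over members have no test. The procedure was tested on simulated data. Library pairs differed by more than sampling noise (chi-square per degree of freedom at least 8.51), so each was kept as a replicate.

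Members named with values are those called, the 5 highest per kb and the 3 smallest p in each direction per subunit, the stalk, paralogue pairs and members whose call changed without 1 library. Members and lists were chosen with earlier results of these data known. Alternatives were other scalings, DESeq2 1.42.0, limma-voom (limma 3.58.1), other filters, ribosomal or structured RNA left out, a length offset (loess span 0.5), the replicate number as a block and each library left out. Values of 2 members that these rules select are not reported here by name; they remain in the counts, medians and sums.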

Additional observations from a re-analysis of the deposited data

How the results depend on the processing

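Rpl41 stayed above 0 in all 20 alternatives and lost its call in 2 of them: without 4-AP replicate 1 (0.974) and, added after seeing the data, without replicate 1 of both groups (0.889), which left 0 members called. Leaving out 1 library at a time gave Rpl41 values from 0.974 to 1.395, 0 to 1 called members, 26 to 159 called genes, member medians from 0.191 to 0.434 (large subunit 0.157 to 0.327, small subunit 0.216 to 0.46), log2 ratios of the summed counts from 0.185 to 0.357, of large to small from -0.078 to 0.003, and ribosomal RNA differences from 2.81 to 6.06 percentage points. Without replicate 1 of both groups the medians were 0.112 for all members and 0.034 for the large subunit. With total counts only, the medians were 0.077 for members, -0.0 for the large and 0.084 for the small subunit, the ratio of sums was 0.053, and 319 genes were called. The 96 called genes became 179 with DESeq2, 55 with no robust fit, 328 with no filter on low counts and 290 at an adjusted p under 0.1. With the replicate block 265 genes were called (234 with the length offset as well), and Rpl41 was at 1.14 (1.016 with the offset) and stayed the 1 called member. The series' design text calls the tissues paired but names no pairs. Deviations of same-numbered libraries correlated at -0.001, 0.107 and 0.024, and only replicate 2 of the 4-AP group correlated best with its own number. The main fit therefore did not use the numbers to pair the samples, but correlations of so few libraries cannot exclude pairing. The cause of these shifts was not tested. Of 29 named tested members, 16 changed sign under some alternative, none of them called in any. The 6 untested members, with at most 51 counts each, did not pass the filter on low counts and could not be assessed.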
